A study of Mus musculus with 4 samples.

Results

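The 41 genes described here carry out DNA replication or mark S phase, the stage of the cell cycle in which the genome is copied. They were taken from a fixed list of mouse symbols, matched to the NCBI Gene numbers of the deposited files, and kept where the level reached 1 FPKM, a fragment count scaled for transcript length and library size, in any library. All 41 of 41 passed, of 17723 genes listed in any library. The lowest maxima belonged to Orc1, at 1.78 FPKM, and Cdc6, at 4.17 FPKM, and no listed gene lay under the limit.

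Natural killer (NK) cells, lymphocytes that kill leukaemia cells, were sorted from mouse spleen by surface DNAM-1, an activating receptor encoded by Cd226, and their total RNA was sequenced. The 4 groups pair each subset with a spleen: normal spleen, labelled day 0, or AML spleen, taken on day 17 after mice had received GFP-positive MLL-AF9 acute myeloid leukaemia (AML) cells. Recipients were C57BL/6J mice of 6 to 8 weeks that had not been irradiated, so the host kept its own blood and immune cells. The treatment label words day 0 as leukaemia mice too, and the tissue label, which calls it normal spleen, was followed. Each group is 1 library, and the labels do not give the other sort gates, the purity, the number of mice in a library or whether the DNAM-1+ and DNAM-1- libraries share mice. No difference between 2 libraries therefore has a replicate check, and none is given a p-value. In bulk RNA of this kind, fewer cells in S phase and less RNA per cycling cell cannot be told apart.

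Replication starts at origins. The origin recognition complex, with Cdc6 and Cdt1, loads the ring of Mcm2 to Mcm7 onto DNA in G1 phase, and Cdc45 and the GINS complex turn that ring into the active helicase at the onset of S phase. The sliding clamp PCNA, placed by replication factor C, holds the polymerases on the template. Resting lymphocytes express many of these genes weakly, and transcription factors of the E2F family switch them on together when a cell commits to division. In mouse spleen, proliferation is known mainly from the less mature NK cells.

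Because E2F acts at the gene's own start, promoter sequences are shown before the levels. RefSeq promoter windows (GRCm38.p6, 250 bases before to 50 after a start, 1 or more per gene) were found for 33 of the 41 genes. They were searched on both strands for the E2F-type letters TTTCCCGC, TTTCGCGC, TTTGCCGC and TTTGGCGC, which can overlap one another. At least 1 match lay in the windows of 14 of the 33 genes, or 42.4%, against 4.86% of 8972 protein-coding genes at 1 FPKM or more with a window and 2.26% of all 32851 windows. CCAAT, another promoter element, was found in 57.6% of the replication genes with a window and in 43.6% of those protein-coding genes. The 250 bases before the start are printed for 2 subunits of the helicase ring with paired or repeated matches, for a licensing factor and a chromatin factor with 1 match each, and for Rrm2, whose DNAM-1 difference was the largest of the 41 and whose window held none of these letters. Capitals mark the E2F-type letters, in either orientation.

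Mcm5 (chr8:75109259-75109508, plus strand): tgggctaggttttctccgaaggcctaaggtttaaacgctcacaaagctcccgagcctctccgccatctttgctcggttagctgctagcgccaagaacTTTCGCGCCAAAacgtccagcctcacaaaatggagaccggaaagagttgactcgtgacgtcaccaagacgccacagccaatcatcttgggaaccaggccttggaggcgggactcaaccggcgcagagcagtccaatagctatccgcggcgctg
Mcm6 (chr1:128359706-128359955, minus strand): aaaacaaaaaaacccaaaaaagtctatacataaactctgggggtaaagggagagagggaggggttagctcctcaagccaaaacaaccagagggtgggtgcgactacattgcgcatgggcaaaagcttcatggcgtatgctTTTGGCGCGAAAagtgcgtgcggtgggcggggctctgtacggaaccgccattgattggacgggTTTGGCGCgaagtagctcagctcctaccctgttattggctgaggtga
Cdc6 (chr11:98907901-98908150, plus strand): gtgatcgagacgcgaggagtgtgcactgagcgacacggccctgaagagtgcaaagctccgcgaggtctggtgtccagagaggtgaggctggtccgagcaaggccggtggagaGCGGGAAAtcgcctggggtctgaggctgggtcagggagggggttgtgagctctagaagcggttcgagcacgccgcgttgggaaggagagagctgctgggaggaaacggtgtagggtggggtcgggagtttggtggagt
Uhrf1 (chr17:56304063-56304312, plus strand): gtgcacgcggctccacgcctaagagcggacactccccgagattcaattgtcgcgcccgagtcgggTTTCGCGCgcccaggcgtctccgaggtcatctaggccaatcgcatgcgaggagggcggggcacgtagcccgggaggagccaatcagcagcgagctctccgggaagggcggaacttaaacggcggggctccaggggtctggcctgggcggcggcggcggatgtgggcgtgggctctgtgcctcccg
Rrm2 (chr12:24708004-24708253, plus strand): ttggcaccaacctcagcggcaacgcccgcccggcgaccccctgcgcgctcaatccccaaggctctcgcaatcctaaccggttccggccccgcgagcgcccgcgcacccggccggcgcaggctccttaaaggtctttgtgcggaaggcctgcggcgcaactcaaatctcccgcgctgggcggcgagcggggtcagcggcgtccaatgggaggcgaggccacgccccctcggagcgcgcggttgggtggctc

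In Mcm5 a pair of matches on opposite strands overlapped, starting at positions -153 and -149 from the start site. Mcm6 held such an overlapping pair at -110 and -106 and a further match at -47. The match of Cdc6 began at -138 and that of Uhrf1, printed for the one of its windows that held a match, at -185. A match is a run of letters, not a measured binding site.

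Most of the 41 genes were higher in DNAM-1+ than in DNAM-1- cells, and most were lower in AML than in normal spleen within each subset. Higher in DNAM-1+ cells were 37 in normal spleen and 38 in AML spleen, as were 5888 and 6108 of all 12054 genes. In both spleens 36 were higher, against 34.8% of all genes. The summed level of the 41 genes was 906 FPKM in DNAM-1+ normal, 632 in DNAM-1- normal, 724 in DNAM-1+ AML and 562 in DNAM-1- AML. The DNAM-1+ cells of AML spleen thus lay below those of normal spleen but above the DNAM-1- cells of either spleen. Of the 41 genes, 31 followed this order library by library, against 8.01% of all 12054 genes at 1 FPKM or more. The highest of the 4 levels lay in DNAM-1+ cells of normal spleen for 37 genes (26.9% of all genes) and the lowest in DNAM-1- cells of AML spleen for 35 (24.2% of all genes).

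**Figure D1:**
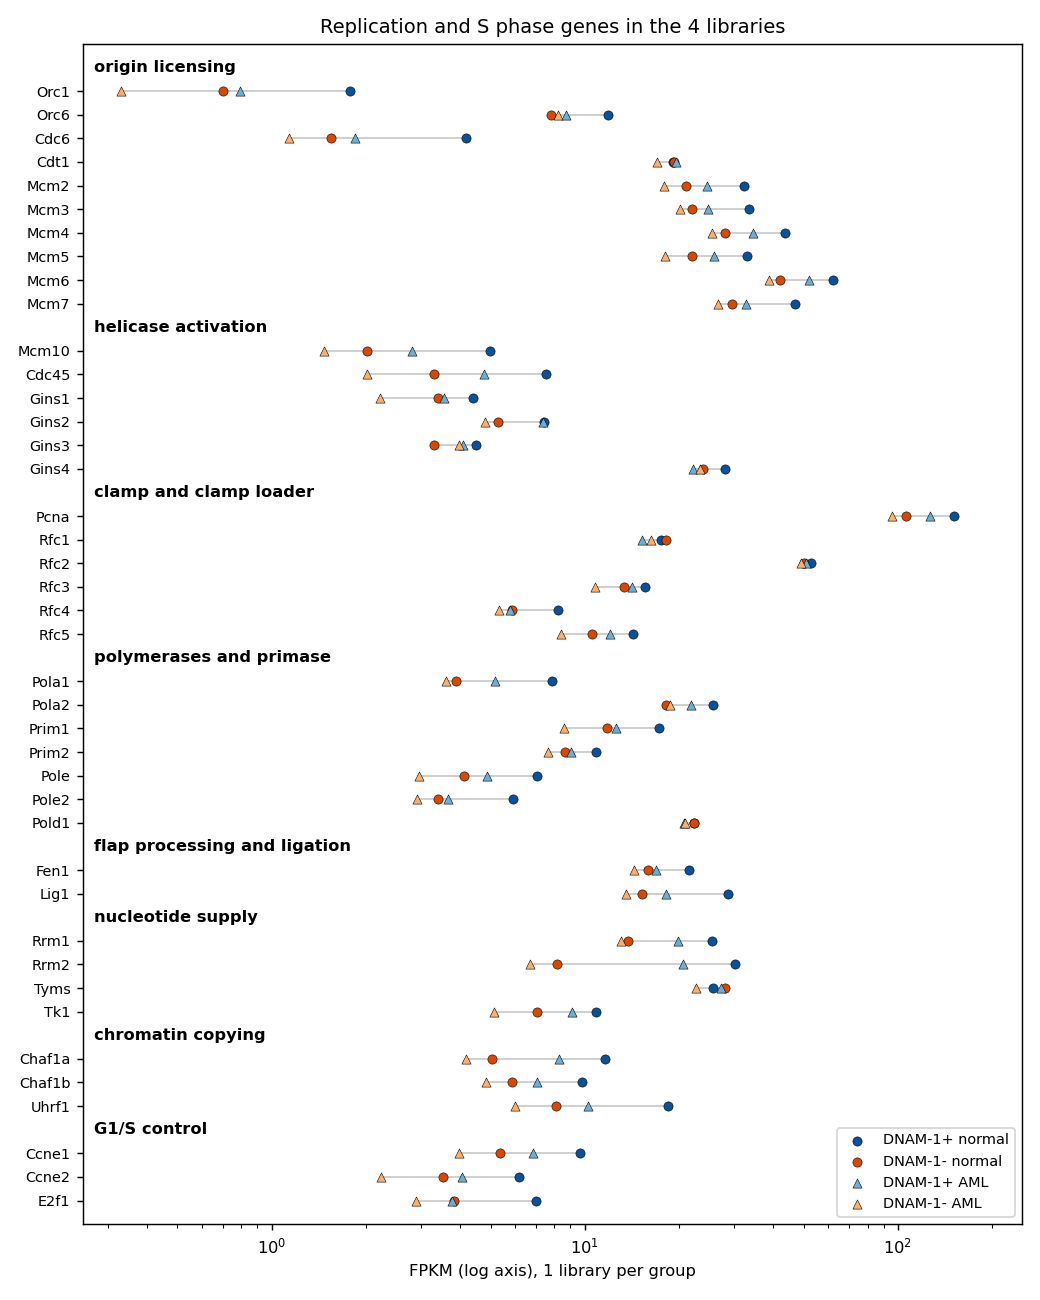
Level of each of the 41 genes in FPKM on a log axis, grouped by role, with 1 point per library (circles, normal spleen; triangles, AML spleen; blue, DNAM-1+; orange, DNAM-1-). In most rows dark blue lies farthest right and light orange farthest left, and Cdt1, Rfc1, Rfc2, Pold1, Tyms and Gins4 show their 4 points close together.

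In normal spleen the median log2 ratio of DNAM-1+ to DNAM-1- cells was 0.56 over the 41 genes, after adding 1 FPKM to both values, an addition that shrinks the ratios of weakly expressed genes. Over all 12054 genes it was 0.00. In AML spleen the medians were 0.41 and 0.00. A 1.5-fold excess in DNAM-1+ cells was reached by 19 of the 41 in normal spleen, where 4.28% of all genes reached it, and by 8 in AML spleen, where 3.82% did. None was 1.5-fold lower in either spleen, against 8.49% and 7.02% of all genes. Both DNAM-1+ libraries lay above both DNAM-1- libraries for 34 of the 41, a pattern shown by 26.3% of all genes.

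limma, fitted to log2(FPKM + 1) of all 4 libraries with the spleen as a second term, tested the mean difference of the subsets with 1 residual degree of freedom. Of the 41 genes, 36 reached the 5 FPKM in any library that the fit asked for. Of these 36, 22 rose in the DNAM-1+ subset at a Benjamini-Hochberg adjusted p below 0.05 and 0 fell, also at an unadjusted p below 0.05, where 7.35% of 9074 genes rose and 8.38% fell. For 6 of the 36 (Cdc45, Pola1, Pole, Pole2, Ccne2 and E2f1) only DNAM-1+ libraries had reached 5 FPKM, so that these entered the fit through the subset where they were high, and 2 of these 6 are among the 22. Fitted with all genes at 1 FPKM or more, which takes in all 41, 20 of the 41 rose and 0 fell, where 4.43% of 12054 genes rose and 6.43% fell.

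**Figure D2:**
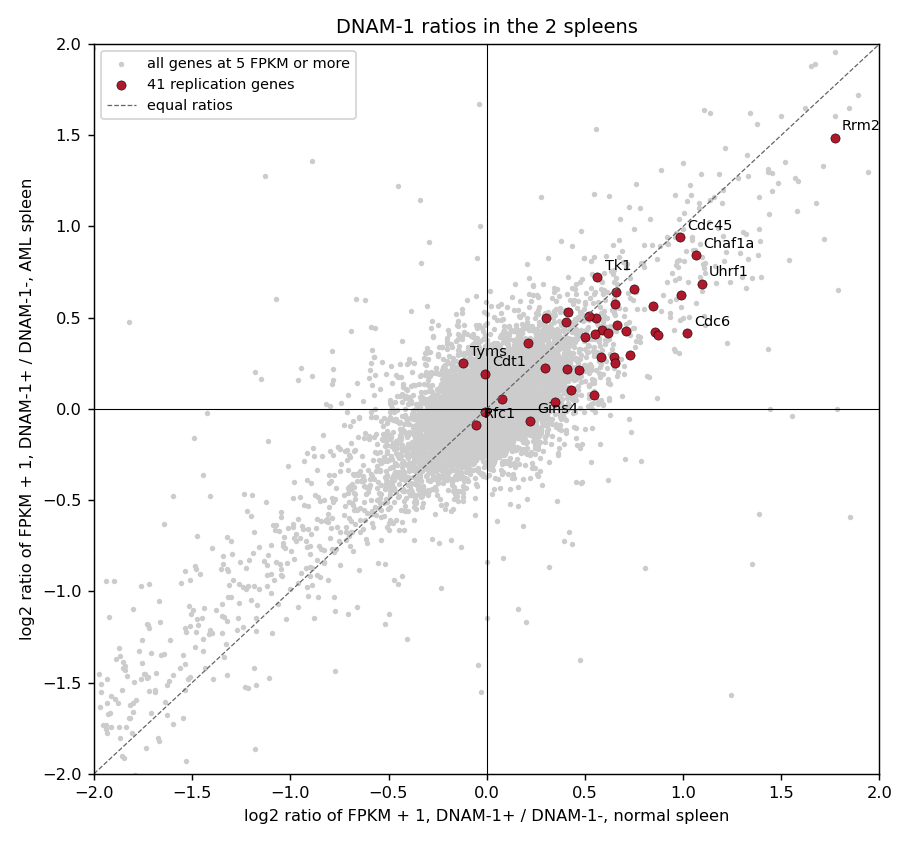
Log2 ratio of DNAM-1+ to DNAM-1- cells (FPKM + 1) in normal spleen on the horizontal axis and in AML spleen on the vertical axis, for the 41 genes (red) and all genes at 5 FPKM or more (grey); the axes are drawn from -2 to 2, which leaves some grey genes outside, and the dashed line marks equal ratios. Rrm2 stands apart at 1.77 and 1.49, most other red points lie to the right of and below the dashed line, and a few lie close to 0.

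The subunits of the Mcm2 to Mcm7 ring, which have equal shares in the helicase, kept close ratios to each other. Mcm6 was at 61.9 FPKM in DNAM-1+ normal, 41.9 in DNAM-1- normal, 51.9 in DNAM-1+ AML and 38.9 in DNAM-1- AML cells. In the same order, used from here on, Mcm2 was at 32.2, 21.1, 24.5 and 17.9 FPKM. Mcm5, whose promoter is printed above, was at 32.9, 22.1, 25.9 and 18.0 FPKM. All 6 genes were highest in DNAM-1+ normal and lowest in DNAM-1- AML cells, and for each the DNAM-1+ and DNAM-1- libraries did not overlap. Their log2 ratios lay between 0.55 (Mcm6) and 0.65 (Mcm7) in normal spleen and between 0.28 (Mcm3 and Mcm7) and 0.50 (Mcm5) in AML spleen. Mcm5 rose by 0.53 on the log2 scale over both spleens (SE 0.07, limma adjusted p = 0.0036), Mcm2 by 0.51 (SE 0.07, limma adjusted p = 0.00592) and Mcm6 by 0.48 (SE 0.07, limma adjusted p = 0.00581). Mcm4 rose too, and so did Mcm3 and Mcm7, whose calls were lost when all genes at 1 FPKM or more were fitted (limma adjusted p = 0.0538 and 0.0575).

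The factors that load the ring differed among themselves. Cdc6, an ATPase that recruits the ring to the origin, was at 4.17, 1.55, 1.85 and 1.14 FPKM, and its log2 ratio between subsets was 1.02 in normal spleen and 0.41 in AML. Cdt1, its partner in loading, whose protein is known to be destroyed in S phase, was at 19.1, 19.2, 19.6 and 17.0 FPKM. The Cdc6 level in DNAM-1+ normal cells stood apart from the other libraries, whereas the Cdt1 subsets overlapped. Among the origin recognition genes, Orc1 was at 1.78, 0.70, 0.79 and 0.33 FPKM and Orc6 at 11.8, 7.79, 8.73 and 8.23. Orc1 and Cdc6 did not reach 5 FPKM, and with all genes at 1 FPKM or more neither passed the test (limma adjusted p = 0.176 and 0.103).

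Among the genes that activate the helicase, Cdc45 and Mcm10 differed most and Gins4 least. Cdc45, a subunit of the active helicase, was at 7.50, 3.29, 4.78 and 2.01 FPKM and rose by 0.96 (SE 0.18, limma adjusted p = 0.016). Cdc45 had reached 5 FPKM only in a DNAM-1+ library (limma adjusted p = 0.0108 when all genes at 1 FPKM or more were fitted). Mcm10, which helps to start the helicase, was at 4.97, 2.01, 2.80 and 1.47 FPKM and was tested only with genes at 1 FPKM or more, where it rose (limma adjusted p = 0.0437). In both genes each DNAM-1+ library exceeded each DNAM-1- library. The subunits of the GINS complex, which bind each other in equal numbers, were unlike in level and in ratio: Gins4 was at 28.0, 23.9, 22.2 and 23.3 FPKM, with subsets that overlapped, and Gins2 at 7.39, 5.29, 7.38 and 4.81, with subsets that did not. Gins1 lay between 2.22 and 4.41 FPKM and Gins3 between 3.31 and 4.49.

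Pcna, the sliding clamp, was the most abundant of the 41 per length in every library, at 151, 107, 126 and 96.0 FPKM. It was higher in both DNAM-1+ libraries and rose by 0.45 (SE 0.06, limma adjusted p = 0.00568). The 5 subunits of its loader ranged in mean log2 ratio from -0.07 (Rfc1) to 0.44 (Rfc5), and 1 passed the test. Rfc5 was at 14.3, 10.5, 12.03 and 8.37 FPKM and rose (limma adjusted p = 0.0152), and Rfc3, at 15.6, 13.3, 14.1 and 10.8, did not pass the test (limma adjusted p = 0.0605). Rfc4, at 8.21, 5.84, 5.78 and 5.32 FPKM, did not pass it either (limma adjusted p = 0.251). Rfc1, the large subunit, was at 17.5, 18.2, 15.2 and 16.3 FPKM, and Rfc2 at 53.0, 50.2, 51.01 and 49.0. The log2 ratios of Rfc1 and Rfc2 lay between -0.09 and 0.08 in both spleens. Some subunits of the loader are known to serve related complexes in DNA damage signalling and sister chromatid cohesion.

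Among the 7 polymerase and primase genes, 3 passed the test. Pole, the catalytic subunit of the leading strand polymerase, was at 7.03, 4.11, 4.88 and 2.95 FPKM and rose by 0.61 (SE 0.16, limma adjusted p = 0.0485). Pole had reached 5 FPKM only in a DNAM-1+ library (limma adjusted p = 0.032 when all genes at 1 FPKM or more were fitted). Pold1, the catalytic subunit of the lagging strand polymerase, was at 22.3, 22.4, 20.7 and 21.0 FPKM, with log2 ratios of -0.01 and -0.02 between subsets. The subsets thus did not overlap in Pole and did in Pold1. A window of Pold1 held an E2F-type match, and no window was found for Pole. Of the primase genes, which encode the enzyme that lays down the RNA primer, Prim1 was at 17.3, 11.8, 12.6 and 8.56 FPKM and rose by 0.52 (SE 0.08, limma adjusted p = 0.00676), and Prim2, at 10.9, 8.67, 9.06 and 7.62, did not pass the test (limma adjusted p = 0.113). Pola1, the catalytic subunit of the primase-coupled polymerase, was at 7.85, 3.89, 5.18 and 3.61 FPKM (limma adjusted p = 0.0528). Pola2, its second subunit, rose by 0.34 (SE 0.08, limma adjusted p = 0.0418), a call lost when all genes at 1 FPKM or more were fitted (limma adjusted p = 0.0844).

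Both genes that finish the lagging strand passed the test. Lig1, the ligase that seals Okazaki fragments, was at 28.6, 15.2, 18.2 and 13.5 FPKM and rose by 0.64 (SE 0.11, limma adjusted p = 0.0145). Fen1, the nuclease that trims their flaps, was at 21.5, 15.9, 16.9 and 14.3 FPKM and rose by 0.31 (SE 0.08, limma adjusted p = 0.0433). The call of Fen1 was lost when all genes at 1 FPKM or more were fitted (limma adjusted p = 0.0835), and that of Lig1 without the mean-variance trend (limma adjusted p = 0.0703).

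The largest difference of all 41 belonged to nucleotide supply. Rrm2, the small subunit of ribonucleotide reductase that limits the enzyme outside S phase, was at 30.2, 8.13, 20.5 and 6.68 FPKM. Its subsets were far apart in both spleens, with the lower DNAM-1+ library above the higher DNAM-1- library, and it rose by 1.63 (SE 0.09, limma adjusted p = 0.000125). Rrm1, the large subunit of the same enzyme, whose protein is known to be more stable through the cycle, was at 25.5, 13.7, 19.8 and 13.1 FPKM and rose by 0.71 (SE 0.09, limma adjusted p = 0.00354). Tk1, the salvage kinase of thymidine, was at 10.9, 7.04, 9.10 and 5.12 FPKM and rose by 0.64 (SE 0.10, limma adjusted p = 0.00987). Tyms, which makes thymidylate from deoxyuridylate, was at 25.6, 28.0, 27.2 and 22.7 FPKM, and its subsets overlapped. In normal spleen Tyms thus exceeded Rrm2 per length in the DNAM-1- library, and in the DNAM-1+ library it did not.

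All 3 genes of chromatin copying rose. Chaf1a, the large subunit of the histone chaperone CAF-1, was at 11.6, 5.04, 8.28 and 4.18 FPKM and rose by 0.95 (SE 0.12, limma adjusted p = 0.0035). Uhrf1, which guides DNA methylation onto the new strand, was at 18.4, 8.07, 10.3 and 6.00 FPKM and rose by 0.89 (SE 0.12, limma adjusted p = 0.00433). Chaf1b, the second subunit of CAF-1, was at 9.83, 5.84, 7.02 and 4.84 FPKM. In each of the 3 genes the subsets did not overlap.

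The genes that start S phase were low. Ccne1, a cyclin that drives the entry into S phase, was at 9.67, 5.35, 6.85 and 3.97 FPKM and rose by 0.70 (SE 0.12, limma adjusted p = 0.0121). Ccne2, its relative, was at 6.15, 3.53, 4.04 and 2.23 FPKM (limma adjusted p = 0.0691, and 0.0323 when all genes at 1 FPKM or more were fitted). E2f1, a transcription factor of the E2F family, was at 6.98, 3.82, 3.78 and 2.90 FPKM, so that its AML DNAM-1+ level was no higher than the normal DNAM-1- level (limma adjusted p = 0.135).

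An excess of 1.5-fold or more in DNAM-1+ cells was seen in both spleens for 7 of the 41 (2.17% of all genes), and 6 had a mean log2 ratio within 0.1 of 0 (Cdt1, Gins4, Rfc1, Rfc2, Pold1 and Tyms). These 6 were chosen after their values were seen. Each spleen's DNAM-1 ratio comes from its own pair of libraries, and across the 41 genes the ratios of both spleens correlated (Pearson's r = 0.80, Spearman's rho = 0.70). This is a correlation across genes of the same libraries, and genes are not independent replicates. Genes with an E2F-type match had a median log2 ratio of 0.62 in normal spleen and 0.38 in AML, and the 19 genes with a window and no match 0.56 and 0.46. The matches thus did not sort the genes by the size of their difference.

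Between spleens the levels were lower in AML. In DNAM-1+ cells 39 of the 41 genes were lower in AML than in normal spleen, as were 5652 of all 12054 genes. The median log2 ratio of the 41 was -0.38, against 0.01 over all genes. In DNAM-1- cells 38 of the 41 were lower, as were 6237 of all 12054 genes, with medians of -0.17 and -0.01. Lower in both subsets were 36 of the 41, against 28.4% of all genes. At least 1.5-fold lower in AML were 6 genes in DNAM-1+ cells, where 2.22% of all genes were, and 0 in DNAM-1- cells, where 2.29% were. No gene of the 41 was 1.5-fold higher in AML, against 1.86% of all genes in DNAM-1+ cells and 1.18% in DNAM-1- cells. Both AML libraries lay below both normal libraries for 5 of the 41 (Gins4, Rfc1, Rfc4, Pold1 and E2f1), a share close to the 13.7% of all genes. For 35 of the 41, DNAM-1+ cells of AML spleen lay above DNAM-1- cells of normal spleen, a count that is not given over all genes.

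The 6 genes 1.5-fold lower in DNAM-1+ cells of AML spleen were Cdc6 (log2 ratio -0.86), Uhrf1 (-0.78), E2f1 (-0.74), Mcm10 (-0.65), Orc1 (-0.64) and Lig1 (-0.62). Cdc6 fell short of 5 FPKM throughout, as did Mcm10 and Orc1. By estimated fragments in normal and AML DNAM-1+ cells, Orc1 (48 and 20), Cdc6 (133 and 56), E2f1 (170 and 87) and Mcm10 (185 and 98) rest on the fewest of the 6. Their 95% counting intervals were wide, at 0.75, 0.45, 0.37 and 0.35 to either side in that order. Such intervals are for fragment ratios without the added 1 FPKM, which shrinks the printed ratios of weakly expressed genes. Lig1 rests on the most fragments of the 6, an estimated 806 in normal and 484 in AML DNAM-1+ cells, with a 95% counting interval of 0.16 to either side, and Uhrf1 on 563 and 297, with an interval of 0.20 to either side. By contrast Gins2, at 7.39 and 7.38 FPKM, Rfc2, at 53.0 and 51.01, and Cdt1, at 19.1 and 19.6, were nearly level between spleens in DNAM-1+ cells.

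**Figure D3:**
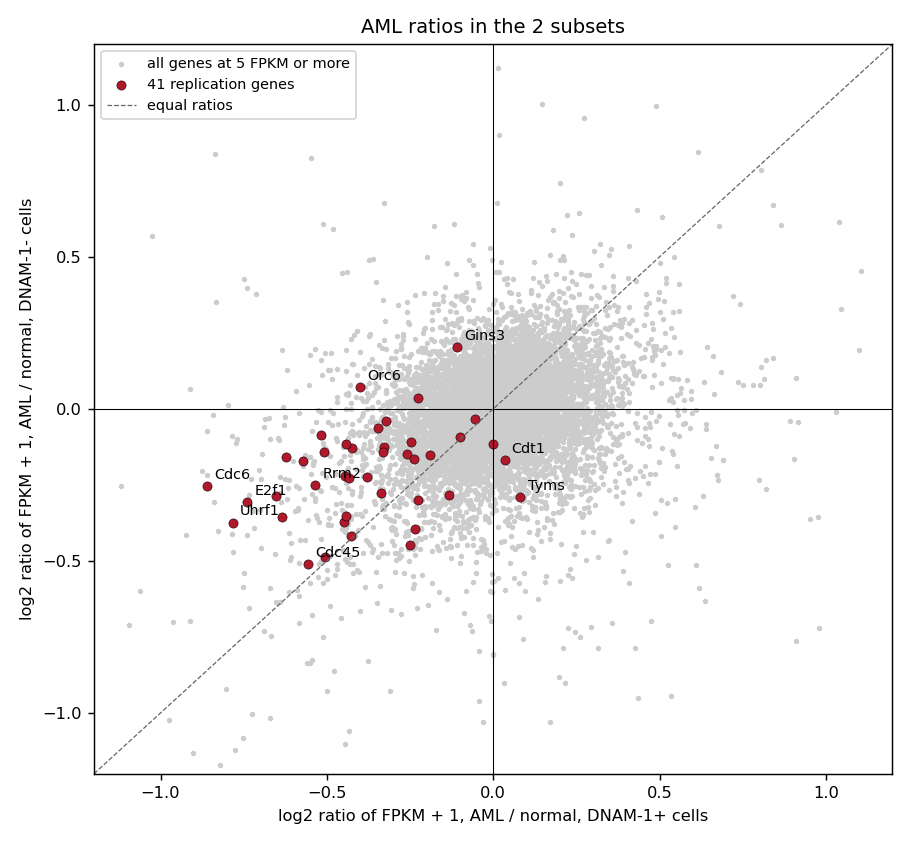
Log2 ratio of AML to normal spleen (FPKM + 1) in DNAM-1+ cells on the horizontal axis and in DNAM-1- cells on the vertical axis, for the 41 genes (red) and all genes at 5 FPKM or more (grey); the axes are drawn from -1.2 to 1.2, which leaves some grey genes outside, and the dashed line marks equal ratios. Most red points lie in the lower left part and above the dashed line, with Cdc6 farthest left at -0.86.

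The limma test of AML against normal spleen, over both subsets, called 0 of the 36 tested genes in either direction, where 0.287% of 9074 genes fell and 0.0661% rose. At an unadjusted p below 0.05, 23 of the 36 were lower and 0 higher, where 7.1% of all genes were lower. In this test the 2 subsets of a spleen stood in for replicates, and the labels do not say whether they share mice. Its p-values therefore do not measure variation between mice. Prim1 had the lowest adjusted p, with a mean log2 ratio of -0.42 (SE 0.08, limma adjusted p = 0.109) and lower values in AML in 2 of 2 subsets. With protein-coding genes alone in the fit, Prim1 and Uhrf1 fell (limma adjusted p = 0.0476 for both). With levels scaled to NK marker genes, 5 fell. That scaling also lowered the AML ratios of genes at large. Their median went from 0.01 to -0.10 for the DNAM-1+ subset and from -0.01 to -0.11 for the DNAM-1- subset. The share of all genes that fell is not given here for either setting.

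The log2 ratio of DNAM-1+ to DNAM-1- cells was lower, with its sign, in AML than in normal spleen for 34 of the 41 genes, against 46.7% of all genes. It was closer to 0 in AML spleen for 32, a count that is not given over all genes. The median change of the log2 ratio was -0.19. Cdc6 changed most, from 1.02 to 0.41, and Orc6, with 0.55 and 0.08, and Lig1, with 0.87 and 0.41, followed. Gins1, Gins2, Rfc3, Rfc5, Tk1, Cdt1 and Tyms had the larger ratio in AML spleen. This interaction has no residual degrees of freedom and was not tested. It is the same quantity as the greater AML difference in DNAM-1+ cells.

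Other genes of the pathway, from a list of 60, moved less. Of 51 tested, 13 rose in DNAM-1+ cells and 2 fell, where 7.35% and 8.38% of all genes did, and the median log2 ratio was 0.31 in normal spleen and 0.18 in AML. Ccna2, the cyclin of S and G2 phase, was at 20.02, 6.78, 14.4 and 5.18 FPKM, and Pclaf, a PCNA-binding protein, at 29.4, 9.86, 20.3 and 8.01. Clspn, a checkpoint adaptor at the fork, was at 9.64, 3.09, 4.95 and 2.31 FPKM. Clspn had reached 5 FPKM only in a DNAM-1+ library and so entered the fit through the group where it was high, as did 3 others of the 51. Ccna2, Pclaf and Clspn were among the 4 called genes of the list with the highest mean ratios, and all 3 rose (limma adjusted p = 0.000195, 0.000196 and 0.0131).

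The 2 that fell, a smaller share than among all genes, were Pold4 and Samhd1. Pold4, the smallest subunit of the lagging strand polymerase, was at 24.9, 50.4, 37.4 and 52.8 FPKM (limma adjusted p = 0.00925), opposite to Pole and unlike the level Pold1. Samhd1, which breaks down deoxynucleotides and is abundant in myeloid cells, was at 96.6, 137, 87.7 and 116 FPKM (limma adjusted p = 0.00533), the reverse of Rrm2, which makes them. The monocyte markers, given below, were also lower in DNAM-1+ cells.

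Among 25 genes of G1/S control and its brakes, 23 reached 1 FPKM, and 5 of 19 tested rose and 2 fell, where 7.35% and 8.38% of all genes did. E2f8, an E2F member that represses targets late in S phase, was at 13.0, 3.38, 7.95 and 3.10 FPKM and rose by 1.40 (SE 0.17, limma adjusted p = 0.00278), having reached 5 FPKM only in DNAM-1+ libraries. Cdkn1a, which encodes the cyclin-dependent kinase inhibitor p21, was at 3.47, 10.02, 4.03 and 7.30 FPKM and fell by 1.01 (SE 0.17, limma adjusted p = 0.0119). Cdkn1a had reached 5 FPKM only in DNAM-1- libraries, and so entered the fit through the subset where it was high. Rb1, the retinoblastoma gene that holds E2F inactive, was at 13.1, 16.9, 13.4 and 17.5 FPKM and fell by 0.35 (SE 0.07, limma adjusted p = 0.0211). Other brakes of the list were called the opposite way. Cdkn2c, another cyclin-dependent kinase inhibitor, was at 20, 11.4, 17.4 and 11.6 FPKM and rose by 0.66 (SE 0.08, limma adjusted p = 0.00371), and Rbl2, a relative of Rb1, was at 83.7, 64.5, 85.3 and 72.8 FPKM and rose by 0.30 (SE 0.07, limma adjusted p = 0.0307). The brakes thus had no common direction between subsets. Tfdp1, the partner protein of E2F, and Cdk4, a kinase of G1 phase, were the other called genes, and both rose (limma adjusted p = 0.0044 and 0.00761).

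The 16 mitotic genes, listed as a second readout of cell division, had larger ratios than the replication genes, with a median of 1.247 between the subsets of normal spleen, 0.93 between those of AML spleen and -0.59 for AML against normal in DNAM-1+ cells. All 16 exceeded 1.5-fold between the subsets of normal spleen, with the DNAM-1+ library higher, and 12 of 14 tested rose, 2 of which (Cdk1 and Cenpe) had reached 5 FPKM only in a DNAM-1+ library. Of 66 genes for core and linker histones in the replication-dependent clusters, 30 reached 1 FPKM, with median log2 ratios of -0.02 and 0.00 between subsets, and these 30 summed to 74.2, 86.3, 94.8 and 122 FPKM. Of 6 tested, 2 fell in DNAM-1+ cells: H1f2, a linker histone, at 13.2, 21.3, 20.8 and 39.1 FPKM (limma adjusted p = 0.00168), and H2ac18, a core histone, at 8.32, 13.02, 12.4 and 17.9 (limma adjusted p = 0.00581). H1f2 also rose in AML relative to normal spleen (limma adjusted p = 0.0327). Their transcripts mostly lack a poly(A) tail, the sources used here do not say how RNA was selected, and near-identical copies can share reads.

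**Figure D4:**
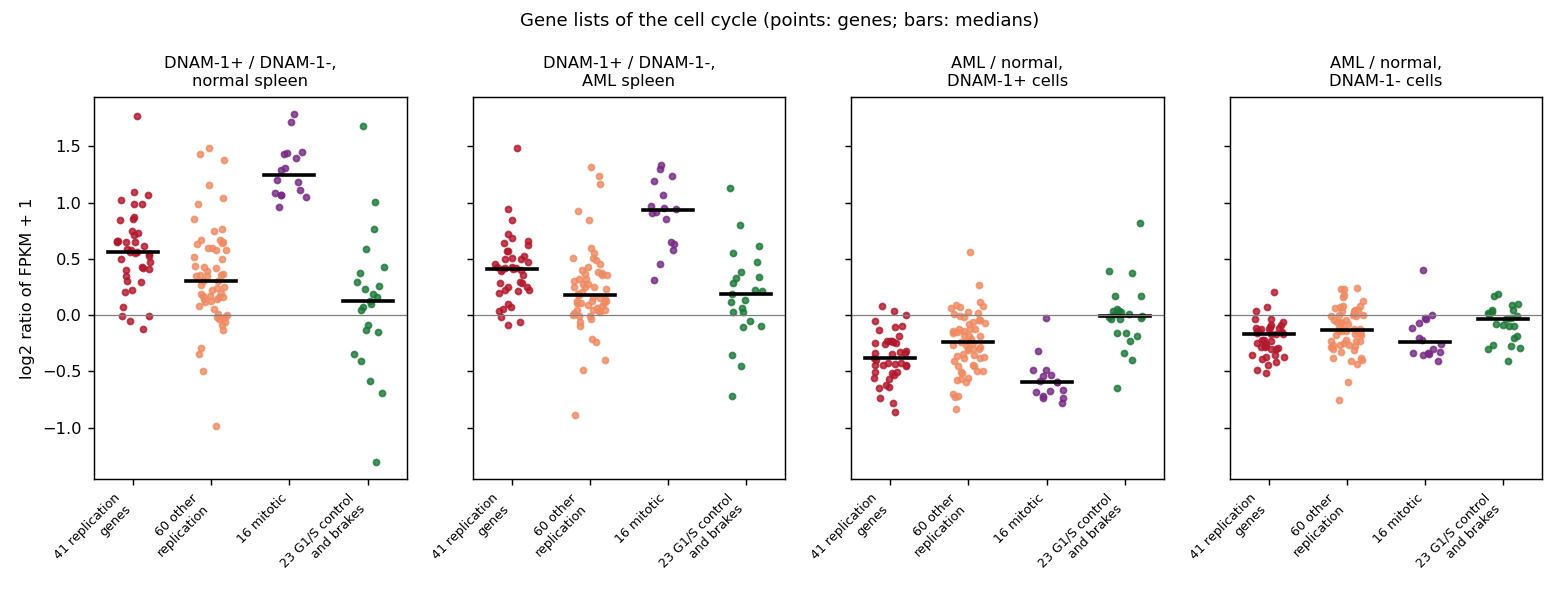
Log2 ratio of FPKM + 1 in each of the 4 contrasts for the 41 replication genes, 60 other replication genes, 16 mitotic genes and 23 genes of G1/S control and brakes, all at 1 FPKM or more in any library; points are genes and bars are medians. The bars of the replication genes stand at 0.56, 0.41, -0.38 and -0.17, and the mitotic genes lie farther from 0 in each panel.

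The sort and the other cells in the libraries were read from marker genes. Cd226 was at 38.6, 0.45, 36.1 and 0.58 FPKM. NK markers (3 of 6 rose in DNAM-1+ cells, 0 fell) summed to 2832, 2496, 3142 and 2682 FPKM. Nkg7, which was not called, was lower in DNAM-1+ cells, at 464.5, 600, 663 and 665 FPKM. Markers of B cells (8 of 8 listed genes fell in DNAM-1+ cells) summed to between 214 and 236 FPKM in DNAM-1+ and between 993 and 1028 in DNAM-1- libraries, and those of monocytes (6 of 8 tested fell, 1 rose) to between 311 and 369 and between 721 and 735. Markers of plasma cells (3 of 4 tested fell) summed to 69.8, 181, 73.5 and 289 FPKM, and those of neutrophils (5 of 5 fell) to 87.0, 150, 60.3 and 117. Between subsets, most tested T cell markers moved with the replication genes, and 4 of 5 rose. The 10 listed genes summed to 69.1 and 65.7 FPKM in DNAM-1+ and to 27.1 and 22.9 in DNAM-1- libraries. Trac was listed in none. Cd8b1, the other tested marker, went the opposite way, at 2.28, 5.32, 0.67 and 2.11 FPKM. Cd4 was at 1.29, 1.3, 1.38 and 0.75 FPKM, and Cd8a at 3.7, 2.17, 2.88 and 2.92. Between spleens, the 8 markers at 1 FPKM or more had median log2 ratios of -0.06 (DNAM-1+) and -0.11 (DNAM-1-). Those of the 41 genes were -0.38 and -0.17.

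Of the leukaemia and progenitor markers, Hoxa9, Hoxa10, Cd34, Elane and Prtn3 were under 1 FPKM in every library. All of these except Hoxa10 were higher in both AML than in both normal libraries, such as Prtn3, at 0.11, 0.23, 0.91 and 0.93. Mpo was at 0.25, 0.26, 1.58 and 2.29 FPKM and Meis1 at 1.42, 0.99, 1.56 and 1.44. Kit, which NK cells can also express, was at 17.9, 7.86, 25.3 and 9.78 FPKM. Erythroid markers summed to between 9.62 and 17.9 FPKM, with Klf1 at most 0.15. Markers of germinal centre B cells (1 of 2 tested fell) summed to 20.3, 38.7, 20.4 and 33.7 FPKM. The part of these cells in the differences of the replication genes was not tested. When levels were scaled to the NK markers, which moved the median of all genes by -0.17 in both DNAM-1 contrasts, the 41 genes had a median of 0.40 in the normal spleen and 0.22 in the AML spleen, 6 of the 22 calls were lost, and 1 gene, Rfc1, fell.

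The files give no counts, and a depth of 8400000 to 8900000 fragments a library was read from the spacing of low microRNA values; a multiple of it would fit the same spacing and was not searched above 14000000. The 95% counting interval of a log2 ratio over the 41 genes then had a median of 0.23 to either side for DNAM-1+ against DNAM-1- in normal spleen and 0.27 in AML spleen, from 0.08 for Rfc2 to 1.16 for Orc1. Variation between mice is not part of this interval, which covers counting error only.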

How the data were processed

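RNA-seq values of 4 libraries, 1 per group, were used as deposited: FPKM in 2 decimals per NCBI Gene number, per the file headers, with genes above 0 listed and the others taken as 0. Bowtie2 2.2.5 and RSEM stand in the submitters' processing notes without their roles; genome build and annotation are not given in the sources used here. Symbols came from RefSeq (GRCm38.p6), which named 17668 of 17723 gene numbers. Ratios are log2(FPKM + 1) differences. limma 3.58.1 (R 4.3.3), with mean-variance trend and additive subset and spleen terms, was fitted, two-sided, to the 9074 genes whose highest library reached 5 FPKM, with Benjamini-Hochberg adjustment over all of them. Its residual, the interaction, has 1 degree of freedom, so its spread is borrowed across genes; a call does not show that both spleens were alike. The fit was tested on simulated data. The genes and lists were chosen with earlier results of these data known. Depth was fitted, between 4000000 and 14000000 fragments and with a length offset, to the spacing of FPKM values of microRNAs 55 to 100 nt long. Of their values, 90.3% to 93.9% lay within 0.1 of a whole number of up to 6 reads, and counts of other genes were not recovered. Approximate fragments used median GENCODE M21 transcript lengths. Named genes outside the 41 were the highest and lowest mean subset ratios among called genes of each list, at most 4 each way; a few values of single genes are not reported here. Pseudocount, floor, trend, scaling, gene type and fold threshold were varied.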

Additional observations from a re-analysis of the deposited data

Results flagged for a closer look

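The differences listed here have opposite signs in the 2 spleens or the 2 subsets, and none of these changes was tested. The log2 ratio of DNAM-1+ to DNAM-1- cells changed sign from normal to AML spleen in Cdt1 (-0.01 to 0.19, a change of 0.20), Gins4 (0.22 to -0.06, a change of -0.28) and Tyms (-0.12 to 0.25, a change of 0.37). The log2 ratio of AML to normal spleen was of opposite sign in DNAM-1+ and DNAM-1- cells in Orc6 (-0.40 and 0.07, a difference of 0.47), Gins3 (-0.11 and 0.20, 0.31), Pola2 (-0.23 and 0.04, 0.26), Cdt1 (0.03 and -0.17, -0.20) and Tyms (0.08 and -0.29, -0.37). Tyms and Cdt1 appear under both because the contrasts share their libraries. In none of these pairs were both ratios clearly larger in size than their counting intervals to either side. Beyond the interval lay Tyms in AML spleen (0.25, interval 0.16) and in DNAM-1- cells (-0.29, 0.15). So did Orc6 (-0.40, 0.37) and Pola2 (-0.23, 0.18) in DNAM-1+ cells. For Gins4 the intervals were 0.23 in normal and 0.25 in AML spleen. A reversal, as opposed to a ratio near 0 on the other side, was thus not shown.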

How the results depend on the processing

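No paired analysis was possible because each group is 1 library and the labels give no mouse or replicate number. The 22 genes that rose in DNAM-1+ cells became 11 of 16 tested with a floor of 20 FPKM, and 0 with no floor. Without a floor limma called 0 of 17723 genes, and 28 of the 41 had an unadjusted p below 0.05. The share of all genes at that unadjusted p is not given here, nor is the share called with a floor of 20 FPKM. Scaling to the NK markers gave 1 gene that fell in DNAM-1+ cells and 5 that fell in AML. Protein-coding genes alone gave 2 that fell in AML. The shares of all genes called with these settings are not given here either. Counts at 1.5-fold moved as follows. Higher in DNAM-1+ cells of normal spleen, the 19 became 7 with a pseudocount of 5 and 11 with NK scaling, and 4 at 2-fold and 32 at a threshold of 0.32 on the log2 scale. In AML spleen the 8 became 1 and 3, and 1 and 25. Lower in AML in DNAM-1+ cells, the 6 became 1 and 12, and 0 and 26, and 3 with a floor of 5 FPKM. In DNAM-1- cells the 0 became 1 with a pseudocount of 0.5, 1 with TPM scaling, 2 with NK scaling and 9 at the threshold of 0.32. Shares of all genes at these other settings and thresholds are not given here. Medians moved with a pseudocount of 5 to 0.40 and 0.27 between subsets in normal and AML spleen, and with NK scaling to 0.40 and 0.22, and to -0.50 and -0.28 between spleens in DNAM-1+ and DNAM-1- cells. Between spleens NK scaling also moved the medians of all genes, to -0.10 and -0.11. Of single genes, the mean subset log2 ratio changed sign under NK scaling for Cdt1 (-0.090), Gins4 (-0.11), Rfc2 (-0.12) and Tyms (-0.12), and under upper quartile scaling for Pold1 (0.0018), none of them called. Apart from smaller or larger sets of genes tested, the cause of these moves was not tested. Counting error was widest for Orc1, Gins1, Pole2 and Cdc6 in normal spleen.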
